A study of Rattus norvegicus with 68 samples.

Results

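T cells and cytotoxic lymphocytes in the nasal lining of formaldehyde-exposed rats were followed through 10 genes: Gzmb, Prf1, Nkg7, Cd8a, Cd8b, Cd4, Cd3g, Cd3e, Lck and Klrd1. They were chosen by symbol with earlier results of these data known, so that their counts beside those of all genes are descriptions. All 10 were found among the 14217 genes that had a probe set of their own on the array. Each gene was represented by the probe set with the highest mean signal over all arrays. Male F344/CrlBR rats that were 8 weeks old breathed formaldehyde by whole-body exposure, with daily sessions of 6 h and weeks of 5 such days, for 5 d, 4 w or 13 w. From the level II part of the nose the lateral meatus and nasoturbinate were kept, without the maxilloturbinate and the olfactory lining. Cells released from them with proteases were mainly of transitional and partly of respiratory epithelium, and each of 68 Rat230_2 arrays carried the RNA of 1 rat. There were 17 groups of 4 rats: 15, 10, 6, 2 and 0.7 ppm at each of the 3 times, and 0 ppm at 5 d and at 13 w. For 4 w, unexposed rats were not analysed here, and the 0.7 ppm group, itself exposed, served as the reference.

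Killing by lymphocytes depends on granules that hold perforin, which opens the membrane of a target cell, and granzymes, which enter through it and cut proteins of the cell death machinery. T cells recognise peptides on major histocompatibility molecules through a receptor that is bound to the CD3 chains, and the CD8 or CD4 co-receptor brings the kinase Lck to that receptor. Natural killer (NK) cells use the same granules without a T cell receptor, and they carry inhibitory and activating lectin-like receptors of which CD94, the product of Klrd1, is a shared chain. In rats, NK cells also carry CD8 alpha chains without the beta chain, and macrophages can carry CD4, so that neither Cd8a nor Cd4 marks T cells alone. The airway lining holds resident lymphocytes between its epithelial cells, and further lymphocytes can enter it from the blood.

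The 3 granule genes Gzmb, Prf1 and Nkg7 had higher signals together at 15 ppm after 5 d, and the 250 bases before their start sites are shown because they are the DNA next to the genes that moved together. They were taken from RefSeq on build GRCr8, whose promoter table held 7 of the 10 genes. Cd8b, Cd4 and Klrd1 were not among them. Capitals mark matches, on either strand, to 6 short motifs that were chosen after the sequences had been seen: TGTGGT (RUNX factors), TGANTCA (AP-1), TGACGT (the core of a cyclic AMP response element), AGGAAG (ETS factors), TTCNNNGAA (STAT factors) and GAAANNGAA (interferon regulatory factors).
Gzmb (chr15:34462470-34462719, minus strand): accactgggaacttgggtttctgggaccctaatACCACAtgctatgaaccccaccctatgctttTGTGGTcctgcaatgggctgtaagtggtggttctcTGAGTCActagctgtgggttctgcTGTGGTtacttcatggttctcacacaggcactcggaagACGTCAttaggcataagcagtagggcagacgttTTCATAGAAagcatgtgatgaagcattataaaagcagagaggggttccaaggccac
Prf1 (chr20:29788790-29789039, plus strand): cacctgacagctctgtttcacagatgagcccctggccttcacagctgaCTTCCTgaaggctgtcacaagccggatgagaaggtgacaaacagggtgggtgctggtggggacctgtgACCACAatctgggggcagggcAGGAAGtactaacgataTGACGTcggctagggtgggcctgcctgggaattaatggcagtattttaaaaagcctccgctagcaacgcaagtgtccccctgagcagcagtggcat
Nkg7 (chr1:102981247-102981496, plus strand): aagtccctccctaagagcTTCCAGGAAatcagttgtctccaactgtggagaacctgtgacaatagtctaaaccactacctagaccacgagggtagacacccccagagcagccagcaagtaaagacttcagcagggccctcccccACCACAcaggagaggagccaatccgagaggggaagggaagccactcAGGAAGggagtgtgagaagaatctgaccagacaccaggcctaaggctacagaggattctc

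TGTGGT matched 3 times before Gzmb and once each before Prf1 and Nkg7, and 14.5% of 33469 promoters of the same length held it. AGGAAG matched 2 times before Prf1 and once before Nkg7 (29.5% of promoters), and TGACGT once each before Gzmb and Prf1 (6.95%). TGANTCA was found before Gzmb (6.34%), TTCNNNGAA before Gzmb and Nkg7 (7.67%), and GAAANNGAA before none of the 3 (8.12%). No marked match overlapped another. Before Cd8a none of the 6 motifs was found in the same window, which says only that these letters were not there. A match is a description of the sequence and not evidence that a factor binds.

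The deposited values are log2 signals made with RMA. Array medians lay between 6.82 and 6.96, and the correlation between arrays within a group was 0.977 to 0.996 over probe sets. The label of nasal epithelium was matched by its markers: the 12 epithelial genes had a mean log2 signal of 12.2 to 12.5 on the arrays of 15 ppm at 5 d and 12.2 to 12.4 on those of 0 ppm at 5 d. No detection calls came with the values. Group means under 6 were treated as low signal, where the log2 difference is likely to understate a change, and no fold change is given against them. By this mark Cd8b and Cd4 were low in all 17 groups, Gzmb, Cd8a and Klrd1 in 16, Nkg7 in 14 and Prf1 in 12, while Cd3g, Cd3e and Lck were above it in every group. A total of 5 arrays had no RNA integrity number. This number averaged 8.33 ± 0.33 at 15 ppm and 7.68 ± 0.29 at 0 ppm after 5 d (SD, n = 4 each), and 8.90 ± 0.36 at 15 ppm and 7.57 ± 0.23 at 0 ppm after 13 w (n = 3 each with a value). It was therefore higher in the exposed groups at both times, and values with it as a covariate are given where they ended a call. Fits with this covariate left out the 5 arrays without a number.

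**Figure D1:**
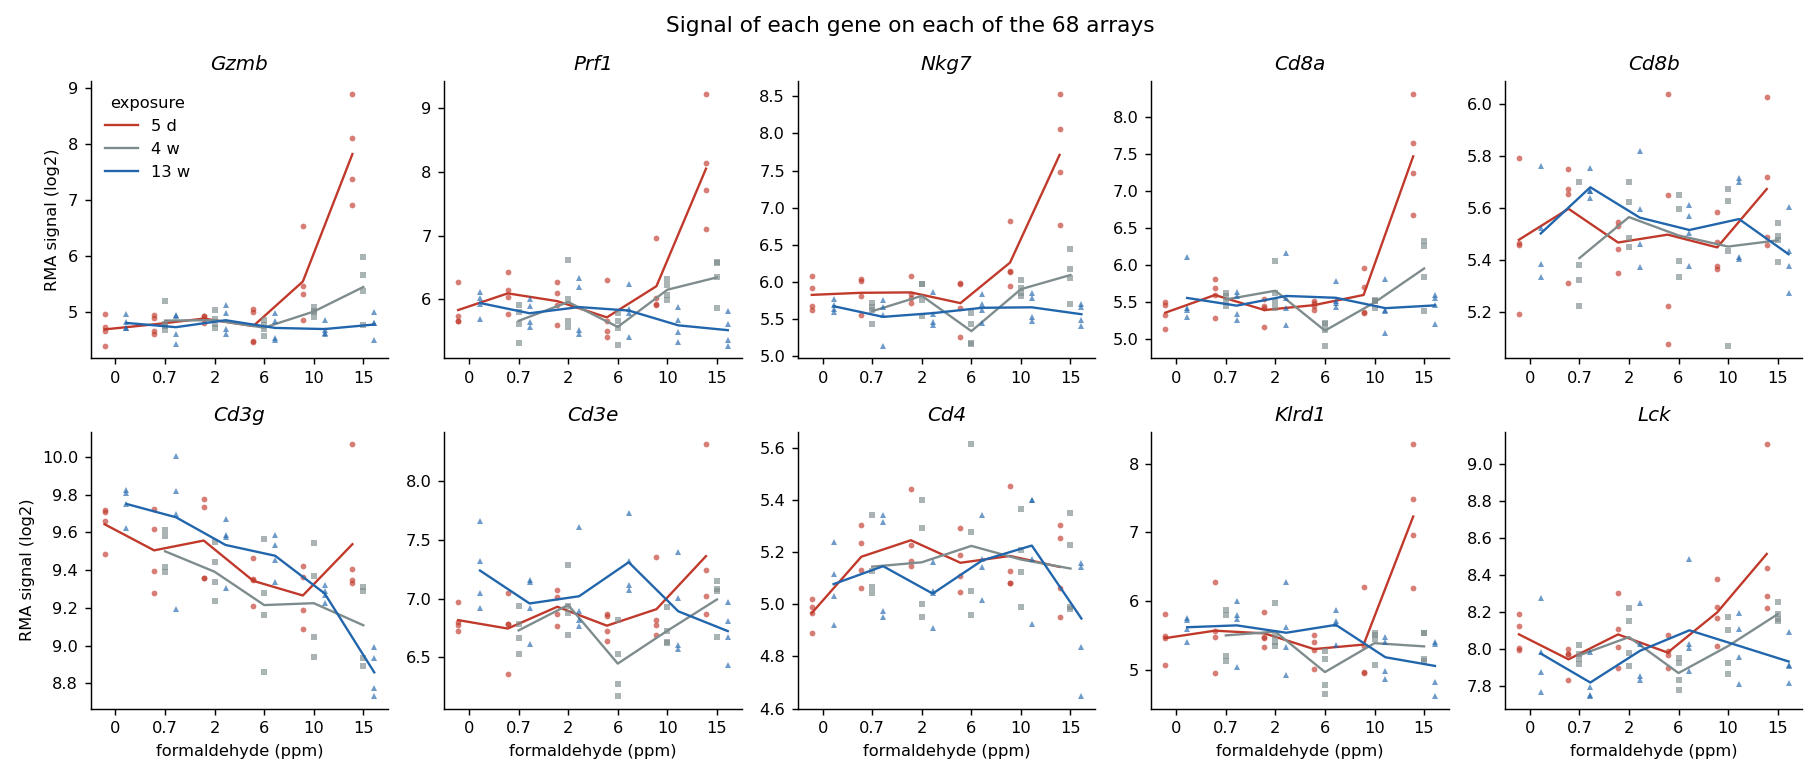
Log2 signal of the 10 genes (1 panel each, own scale) against formaldehyde concentration in ppm, with 1 point per animal and lines through the group means, for 5 d (red circles), 4 w (grey squares) and 13 w (blue triangles). Gzmb, Prf1, Nkg7, Cd8a and Klrd1 have their highest means at 15 ppm after 5 d, at 7.82, 8.05, 7.71, 7.47 and 7.23, and Cd3g runs down with concentration after 13 w to a mean of 8.86 at 15 ppm.

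The comparison of 15 ppm with 0 ppm after 5 d shows which of these genes the highest concentration moved within the first week. Of the 10 genes, 7 rose and 0 fell (limma, adjusted p under 0.05), where 18.3% of all genes tested were called higher and 19.5% lower. The granule genes, Cd8a and Klrd1 rose by 1.77 to 3.12 on the log2 scale, and Cd3e and Lck rose by 0.54 and 0.43. Cd8b, Cd4 and Cd3g were not called. The median log2 difference of the 10 genes was 1.16, against -0.01 over all genes, and in 6 genes every animal at 15 ppm lay above every animal at 0 ppm. How many of all genes were apart in this way was not counted. In bulk RNA, more cells of a type and more RNA per cell cannot be told apart.

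Gzmb encodes granzyme B, the main death-inducing protease of the granules. Its log2 signal was 8.10, 8.89, 6.91 and 7.37 in animals 354, 356, 358 and 359 at 15 ppm, against 4.67, 4.74, 4.41 and 4.96 in animals 204, 207, 208 and 210 at 0 ppm. The lowest animal at 15 ppm was well above the highest at 0 ppm. The log2 difference was 3.12 ± 0.24 (SE), with limma's adjusted p = 6.2e-16, the largest of the 10 genes. The other probe set of Gzmb averaged 6.65 at 15 ppm and 3.88 at 0 ppm, a log2 difference of 2.77 ± 0.20 (adjusted p = 1.4e-16 in limma's fit over all probe sets), again with no overlap.

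Prf1 encodes perforin. Its signal was 8.14, 9.23, 7.11 and 7.72 in the same order of animals at 15 ppm, against 5.73, 5.66, 5.65 and 6.28 at 0 ppm. The groups did not overlap, although animal 210 at 0 ppm stood above the other unexposed animals. The log2 difference was 2.22 ± 0.26 (limma, adjusted p = 6.8e-10).

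Nkg7 encodes a granule membrane protein that natural killer cells and cytotoxic T cells need for release of their granules. Its signal was 8.06, 8.54, 6.77 and 7.48 at 15 ppm, against 5.68, 5.91, 5.62 and 6.08 at 0 ppm. All exposed animals were above all unexposed ones, and the log2 difference was 1.89 ± 0.20 (limma, adjusted p = 1.8e-11).

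The co-receptor genes differed among themselves. Cd8a, the alpha chain that forms CD8 alone or with the beta chain, had a signal of 7.24, 8.32, 6.67 and 7.65 at 15 ppm, against 5.33, 5.46, 5.13 and 5.51 at 0 ppm. The groups were far apart, with a log2 difference of 2.11 ± 0.20 (limma, adjusted p = 1.4e-12). A further probe set of Cd8a rose by 1.31 ± 0.16 (adjusted p = 2.5e-09), and the last one, with low means of 5.49 at 15 ppm and 5.22 at 0 ppm, was not called (log2 difference 0.28 ± 0.13, adjusted p = 0.093). Cd8b, the beta chain, had a signal of 5.49, 6.03, 5.46 and 5.72 at 15 ppm, against 5.46, 5.47, 5.20 and 5.79 at 0 ppm. These values overlapped, and the log2 difference of 0.19 ± 0.14 had a 95% interval of -0.08 to 0.47 (limma, adjusted p = 0.29). Cd4, the co-receptor of helper T cells, had a signal of 5.06, 5.30, 5.25 and 4.95 at 15 ppm, against 5.02, 4.89, 4.99 and 4.96 at 0 ppm. These groups overlapped too, and the log2 difference was 0.18 ± 0.12 (interval -0.07 to 0.42, adjusted p = 0.28). At such low signals, changes of Cd8b and Cd4 are hard to see, and neither gene was called in any of the 24 comparisons made.

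Klrd1 encodes CD94, which pairs with NKG2 chains on NK cells and on some cytotoxic T cells. Its signal was 7.49, 8.28, 6.18 and 6.96 at 15 ppm, against 5.82, 5.07, 5.49 and 5.46 at 0 ppm. The groups did not overlap, and animal 358 was nearest to the unexposed animals. The log2 difference was 1.77 ± 0.28 (limma, adjusted p = 8.5e-07).

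The genes of the T cell receptor complex and its kinase moved less, or not beyond their spread. Cd3e encodes the CD3 epsilon chain. Its signal was 7.02, 8.31, 6.87 and 7.24 at 15 ppm, against 6.97, 6.78, 6.73 and 6.80 at 0 ppm. Animal 358 lay within the unexposed range, and animal 356 was far above the others. The gene was called at 1.46-fold higher (log2 difference 0.54 ± 0.21, limma, adjusted p = 0.031), but without animal 356 the log2 difference was 0.23 (adjusted p = 0.42), and without animal 207, 208 or 210 of 0 ppm the adjusted p was 0.059, 0.07 or 0.057. The call was also lost with array weights (adjusted p = 0.10) and in a fit to the 5 d arrays alone (adjusted p = 0.057). The other Cd3e probe set was not called (0.31 ± 0.16, adjusted p = 0.14).

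Lck encodes the kinase that starts signalling from the T cell receptor and is also made by NK cells. Its signal was 8.44, 9.10, 8.22 and 8.29 at 15 ppm, against 8.13, 8.19, 8.00 and 7.99 at 0 ppm. The lowest exposed animal was just above the highest unexposed one, and the gene was 1.35-fold higher (log2 difference 0.43 ± 0.12, limma, adjusted p = 0.0028). Without animal 356 the log2 difference was 0.24 (adjusted p = 0.094). Cd3g encodes the CD3 gamma chain. Its signal was 9.40, 10.07, 9.33 and 9.35 at 15 ppm, against 9.71, 9.66, 9.48 and 9.72 at 0 ppm. Of the exposed animals, 3 were below all unexposed ones and animal 356 was above them, and the log2 difference was -0.11 ± 0.14 (interval -0.39 to 0.18, adjusted p = 0.61).

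**Figure D2:**
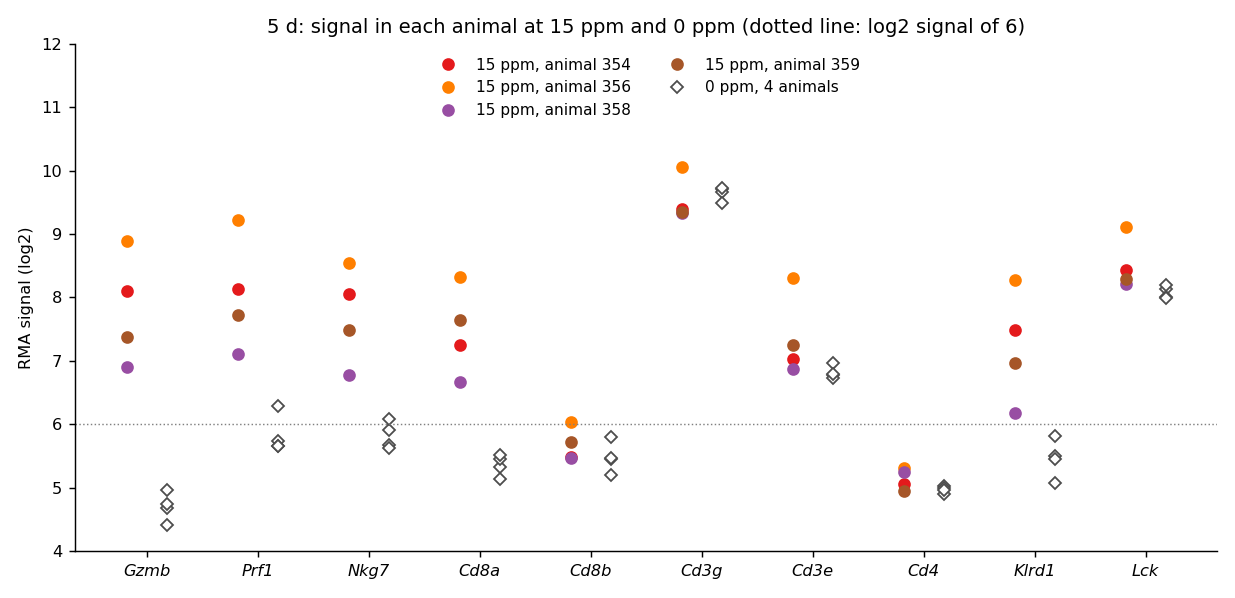
Log2 signal of the 10 genes in single animals after 5 d, with the 4 rats at 15 ppm as coloured circles on the left of each gene and the 4 rats at 0 ppm as open diamonds on the right. Animal 356 (orange) is the highest of the 15 ppm group for all 10 genes, and animal 358 (purple) is the lowest for 9 of them.

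Within the 15 ppm group the rats ranked alike from gene to gene. Animal 356 had the highest signal of the 4 for all 10 genes, and animal 358 the lowest for 9. Such ranking was not particular to this group. Animal 240 was the lowest for 10 genes at 0.7 ppm after 5 d, and animal 349 the highest for 9 at 10 ppm after 13 w. It was weaker in other groups, such as 6 ppm after 5 d, where animals 295 and 298 were each the highest for 4. The RNA integrity number was 8.3 in animal 356 and 8.8 in animal 358, and their array medians were 6.92 and 6.91. The count of 7 genes called higher became 5 without animal 356, because Cd3e and Lck were no longer called, and was 7 without animal 354, 358 or 359. It was 6 without animal 207, 208 or 210 of the 0 ppm group. The same 5 genes, Gzmb, Prf1, Nkg7, Cd8a and Klrd1, were called under every one of these omissions, with adjusted p no higher than 5.2e-05. With the RNA integrity number as a covariate the count was 7.

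At the lower concentrations after 5 d, few of these genes could be told from 0 ppm. Limma called 0 of the 10 at 0.7 ppm (0% of all genes), 0 at 2 ppm (0.0281%) and 0 at 6 ppm (8.83%). At an unadjusted p under 0.05 these counts were 0, 1 and 1, the genes being Cd4 at 2 ppm (log2 difference 0.28 ± 0.12) and Cd3g at 6 ppm (-0.30 ± 0.14). At 10 ppm Gzmb was called higher and 0 genes were called lower, where 9.75% of all genes were called higher and 5.79% lower. The share of the 10 genes called higher was near that of all genes. At an unadjusted p under 0.05 there were 3 genes, Gzmb, Cd3g and Nkg7 (0.43 ± 0.20, adjusted p = 0.14). The Gzmb signal was 5.46, 4.87, 6.53 and 5.33 in animals 324, 328, 329 and 330 at 10 ppm, against 4.41 to 4.96 at 0 ppm. The groups overlapped in animal 328, and animal 329 was the highest.

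The log2 difference of Gzmb at 10 ppm was 0.85 ± 0.24 (limma, adjusted p = 0.0091). It was 0.53 (adjusted p = 0.17) without animal 329, 0.81 (adjusted p = 0.051) with the RNA integrity number as a covariate, and 0.85 (adjusted p = 0.088) in a fit to the 5 d arrays alone. The covariate fit left out animal 324 of 10 ppm, which had no such number. The other Gzmb probe set was not called (0.50 ± 0.20, adjusted p = 0.11). Cd3g was below 0 ppm in every animal at 10 ppm, with a log2 difference of -0.38 ± 0.14 that was not called (adjusted p = 0.059). Cd4 was above 0 ppm in every animal at 0.7, 2, 6 and 10 ppm, and was not called at any of them.

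The step between the highest concentrations was tested directly. At 15 ppm against 10 ppm after 5 d, 5 of the 10 genes were higher and 0 lower, where 7.18% of all genes were called higher and 8% lower. The log2 differences were 2.27 ± 0.24 for Gzmb, 1.84 ± 0.26 for Prf1, 1.45 ± 0.20 for Nkg7, 1.87 ± 0.20 for Cd8a and 1.86 ± 0.28 for Klrd1. Prf1 was 3.59-fold and Nkg7 2.74-fold higher at 15 ppm. The animals of the groups overlapped for Nkg7 and Klrd1, through animal 358 of 15 ppm and animal 329 of 10 ppm, and not for the other 3. Limma's adjusted p was at most 1.2e-06 for these 5. For Lck (0.32 ± 0.12, adjusted p = 0.065) and Cd3e (0.45 ± 0.21, adjusted p = 0.14) the difference was not called.

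After 4 w the comparison asked whether the same genes were higher at 15 ppm than at 0.7 ppm. Gzmb, Prf1 and Nkg7 rose and Cd3g fell, so that 3 genes were called higher and 1 lower, where 21.3% of all genes were called higher and 16.1% lower. The changes of the granule genes were 0.49 to 0.68 on the log2 scale. The median log2 difference of the 10 genes was 0.24, against 0.01 over all genes. The calls rested on few animals: the count of 4 became 2, 0, 2 and 1 without animal 242, 243, 245 or 250 of 0.7 ppm, and 1, 0 and 1 without animal 362, 368 or 369 of 15 ppm. Without animal 365 it was 4, all higher, and Cd3g was not among them (log2 difference -0.33, adjusted p = 0.082).

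Gzmb had a signal of 5.98, 4.78, 5.66 and 5.38 in animals 362, 365, 368 and 369 at 15 ppm, against 5.20, 4.68, 4.78 and 4.75 in animals 242, 243, 245 and 250 at 0.7 ppm. Animal 365 was within the range of 0.7 ppm, and the log2 difference was 0.60 ± 0.24 (limma, adjusted p = 0.042). Prf1 had a signal of 6.59, 5.86, 6.58 and 6.35 at 15 ppm, against 5.80, 5.32, 5.92 and 5.61 at 0.7 ppm. Its groups overlapped in animal 365 too, with a log2 difference of 0.68 ± 0.26 (adjusted p = 0.034). The RNA integrity number averaged 8.73 at 15 ppm and 8.20 at 0.7 ppm after 4 w, and with it as a covariate Gzmb was not called (0.55, adjusted p = 0.09). Nkg7 had a signal of 6.44, 5.70, 6.05 and 6.18 at 15 ppm, against 5.66, 5.61, 5.71 and 5.43 at 0.7 ppm. Again animal 365 was the lowest at 15 ppm, and the log2 difference was 0.49 ± 0.20 (adjusted p = 0.044).

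Cd3g went the other way after 4 w, with a signal of 9.31, 8.93, 8.89 and 9.29 at 15 ppm, against 9.61, 9.58, 9.42 and 9.39 at 0.7 ppm. All exposed animals lay below all animals of 0.7 ppm, and the log2 difference was -0.39 ± 0.14 (limma, adjusted p = 0.023), a signal 1.31-fold lower at 15 ppm. Cd8a (0.42 ± 0.20, adjusted p = 0.10), Lck (0.22 ± 0.12, adjusted p = 0.15) and Cd3e (0.26 ± 0.21, adjusted p = 0.35) were not called, and for Lck the groups did not overlap. Klrd1 had a log2 difference of -0.16 ± 0.28, with an interval of -0.73 to 0.41.

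At the other concentrations of 4 w, limma called 0 of the 10 genes at 2 ppm (0.0211% of all genes), 0 at 6 ppm (3.28%) and 0 at 10 ppm (14.8%). At an unadjusted p under 0.05 the counts were 0, 2 and 0, the genes at 6 ppm being Cd8a (-0.42 ± 0.20) and Cd3g (-0.28 ± 0.14). For Prf1 and Nkg7 every animal at 10 ppm was above every animal at 0.7 ppm, although neither was called. Between 15 and 10 ppm after 4 w 0 genes were called (6.29% of all genes), and 1, Cd8a, had an unadjusted p under 0.05 (0.46 ± 0.20).

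The comparisons after 13 w asked which of the genes differed from 0 ppm under the longest exposure, and no gene of the list was called higher at any concentration. At 15 ppm 0 genes rose and 2, Cd3g and Cd3e, fell, where 23.5% of all genes were called higher and 20.6% lower. The share of the list called lower was near that of all genes. Lck, with a mean of 7.93 at 15 ppm and 7.97 at 0 ppm, was not called. Gzmb had a signal of 4.50, 4.81, 4.80 and 5.01 in animals 375, 377, 378 and 379 at 15 ppm, against 4.72, 4.73, 4.82 and 4.98 in animals 225, 226, 229 and 230 at 0 ppm. The groups overlapped fully, and the log2 difference of -0.03 ± 0.24 had an interval of -0.51 to 0.45. Prf1 (-0.43 ± 0.26), Nkg7 (-0.11 ± 0.20) and Cd8a (-0.10 ± 0.20) were not called either. Klrd1 had a signal of 4.61, 5.40, 5.38 and 4.82 at 15 ppm, against 5.41, 5.72, 5.75 and 5.59 at 0 ppm. The exposed animals all lay below the unexposed ones, at low signal, with a log2 difference of -0.56 ± 0.28 that was not called (limma, adjusted p = 0.10).

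Cd3g had a signal of 8.77, 8.94, 8.73 and 8.99 at 15 ppm after 13 w, against 9.81, 9.75, 9.62 and 9.82 at 0 ppm. The groups were far apart, and the signal was 1.86-fold lower at 15 ppm (log2 difference -0.89 ± 0.14, limma, adjusted p = 4.3e-07). Over the 6 concentrations from 0 to 15 ppm the group means at 13 w were 9.75, 9.68, 9.53, 9.48, 9.28 and 8.86. Each mean was lower than the one before it, and the SDs of these groups ran from 0.04 to 0.35. At 10 ppm Cd3g alone was called lower and 0 genes higher, where 12.5% of all genes were called lower and 13.8% higher. The share of the list called lower was near that of all genes. The Cd3g signal there was 9.29, 9.27, 9.23 and 9.32 in animals 341, 346, 348 and 349, below every animal of 0 ppm (log2 difference -0.47 ± 0.14, adjusted p = 0.0082).

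Between 15 and 10 ppm after 13 w Cd3g was again the gene called, lower at 15 ppm, with 0 higher, where 4.07% of all genes were called lower and 8.55% higher. All animals at 15 ppm were below all at 10 ppm (log2 difference -0.42 ± 0.14, limma, adjusted p = 0.039). Without any of animals 341, 346, 348 and 349 of 10 ppm, or 375 and 378 of 15 ppm, that call was lost, with log2 differences of -0.38 to -0.43 and an adjusted p of up to 0.14. At 0.7, 2 and 6 ppm after 13 w limma called 0 of the 10 genes (0%, 0.00703% and 12.2% of all genes), also at an unadjusted p under 0.05.

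Cd3e had a signal of 6.68, 6.81, 6.44 and 6.97 at 15 ppm after 13 w, against 6.92, 7.66, 7.05 and 7.32 at 0 ppm. Animal 379 at 15 ppm was just above animal 225 at 0 ppm, so that the groups overlapped. The signal was 1.43-fold lower at 15 ppm (log2 difference -0.51 ± 0.21, limma, adjusted p = 0.036). The log2 difference was -0.37 (adjusted p = 0.18) without animal 226 and -0.49 (0.075) without animal 230 of 0 ppm, and -0.50 (0.065) without animal 375 and -0.42 (0.13) without animal 378 of 15 ppm. It was -0.29 (adjusted p = 0.46) with the RNA integrity number as a covariate and -0.23 (adjusted p = 0.38) against 0.7 ppm in place of 0 ppm. The covariate fit left out animal 226 of 0 ppm and animal 377 of 15 ppm, which had no such number. The other Cd3e probe set was not called (-0.32 ± 0.16, adjusted p = 0.11).

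**Figure D3:**
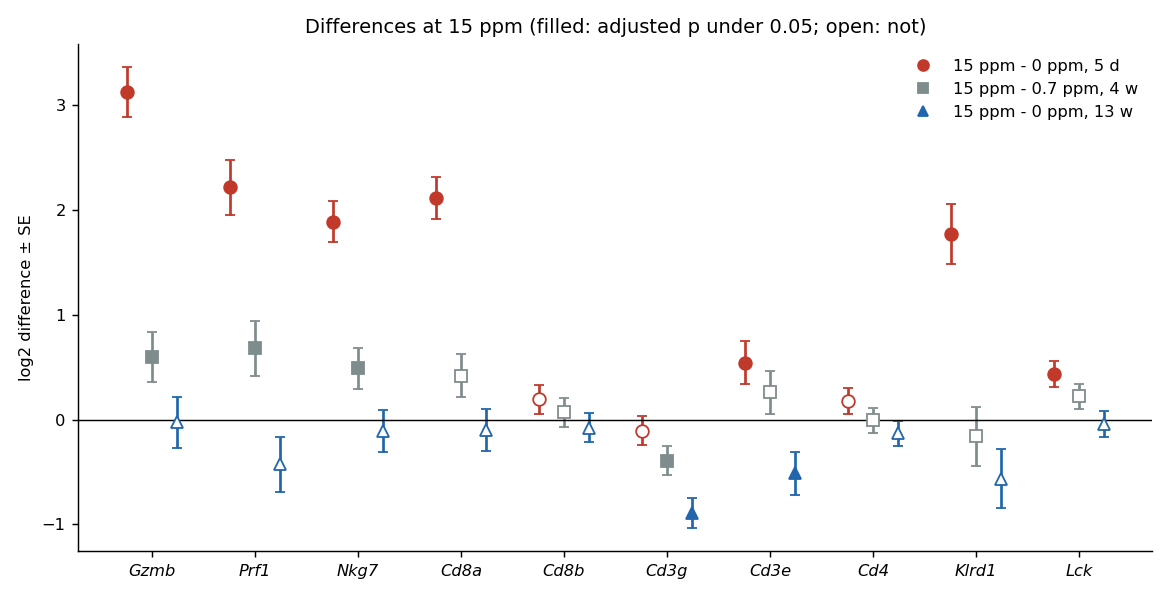
Log2 difference of each gene at 15 ppm from its reference group, with SE bars (n = 4 animals per group), for 5 d against 0 ppm (red circles), 4 w against 0.7 ppm (grey squares) and 13 w against 0 ppm (blue triangles), filled where the adjusted p was under 0.05 and open elsewhere. Gzmb is at 3.12, 0.60 and -0.03 at the 3 times, and Cd3g at -0.11, -0.39 and -0.89.

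Whether the response to 15 ppm differed between times was tested as an interaction. The response at 13 w minus that at 5 d was lower for 8 of the 10 genes and higher for 0, where 6.09% of all genes were lower and 9.21% higher. The difference of responses was -3.15 ± 0.34 for Gzmb, -2.64 ± 0.37 for Prf1, -2.00 ± 0.28 for Nkg7, -2.21 ± 0.29 for Cd8a and -2.33 ± 0.40 for Klrd1, each with limma's adjusted p of at most 1.8e-05. It was smaller for Cd3e (-1.06 ± 0.29, adjusted p = 0.0075), Cd3g (-0.79 ± 0.20, adjusted p = 0.0036) and Lck (-0.48 ± 0.17, adjusted p = 0.046). Cd8b and Cd4 were not called. Lck lost its call on leaving out any of 10 of the 16 animals, with log2 differences of -0.28 (without animal 356) to -0.50, with array centring (-0.46, adjusted p = 0.066) and with the RNA integrity number as a covariate (-0.35, adjusted p = 0.24). Of the 8 alternative settings, array centring and this covariate among them, 4 kept the Lck call. With that covariate Cd3e lost its call as well (-0.89, adjusted p = 0.066). The covariate fit left out animals 226 and 377 of 13 w, which had no RNA integrity number. The other Cd3e probe set (-0.62, adjusted p = 0.056) and the last probe set of Cd8a (-0.48, adjusted p = 0.071) were not called either.

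With 0.7 ppm as the reference at both times, the response at 4 w minus that at 5 d was lower for 5 genes and higher for 0, where 1.86% of all genes were lower and 1.58% higher. These were Gzmb (-2.44 ± 0.34), Klrd1 (-1.82 ± 0.40), Cd8a (-1.46 ± 0.29), Nkg7 (-1.37 ± 0.28) and Prf1 (-1.27 ± 0.37). Limma's adjusted p was 0.038 for Prf1, whose call was lost on leaving out any of 9 of the 16 animals (-0.88, adjusted p = 0.15, without animal 356), and at most 0.0034 for the other 4. The last probe set of Cd8a, at low signal, gave -0.13 here and was not called (adjusted p = 0.81). The response at 13 w minus that at 4 w gave 0 calls among the 10 genes (0.0633% of all genes), and 2 genes, Prf1 (-0.95 ± 0.37) and Cd3g (-0.43 ± 0.20), had an unadjusted p under 0.05. At 6 and 10 ppm the response at 13 w minus that at 5 d gave 0 calls (0% and 0.00703% of all genes). At an unadjusted p under 0.05 these counts were 0 and 1, the gene being Gzmb (-0.96 ± 0.34).

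The levels themselves were also compared between times. At 15 ppm the signal after 13 w was lower than after 5 d for 8 genes and higher for 0, where 13.1% of all genes were lower and 14.4% higher. For 7 of the 8 the animals of the times did not overlap, a count that was not made over all genes. The exception was Cd3e, whose log2 difference of -0.64 ± 0.21 was -0.32 (limma, adjusted p = 0.22) without animal 356 of 5 d and -0.54 (adjusted p = 0.076) without animal 378 of 13 w. The other Cd3e probe set was not called (-0.23, adjusted p = 0.32). At 0 ppm, 13 w against 5 d, limma called 0 of the 10 genes (2.24% of all genes), and 1, Cd3e, had an unadjusted p under 0.05 (0.42 ± 0.21). The titles of 0 ppm samples carry different codes at 5 d and at 13 w and those of the exposed samples a further one, so that anything behind these codes cannot be told apart from time or exposure.

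The levels were then put in order over all 17 groups. Gzmb had its highest mean at 15 ppm after 5 d (7.82 ± 0.87, SD, n = 4). Next came 10 ppm after 5 d (5.55 ± 0.70) and 15 ppm after 4 w (5.45 ± 0.51), which differed by less than their spread. The other 14 group means lay between 4.69 and 5.01. For Prf1 and Cd8a the next highest group was 15 ppm after 4 w, at 6.34 and 5.95, for Nkg7 it was 10 ppm after 5 d, at 6.26, and for Klrd1 6 ppm after 13 w, at 5.65. Cd3g instead had its highest mean at 0 ppm after 13 w (9.75) and its lowest at 15 ppm after 13 w (8.86). The means of Cd8b and Cd4 ranged over only 0.27 and 0.30 on the log2 scale.

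The group means of Gzmb were compared with those of the other genes over the 17 groups. Pearson's r was 0.96 between Gzmb and Prf1, 0.97 between Gzmb and Nkg7, 0.96 between Gzmb and Cd8a, 0.87 between Gzmb and Lck and 0.85 between Gzmb and Klrd1. These values rested in part on 1 group: without 15 ppm after 5 d, over 16 groups, they were 0.75, 0.81, 0.62, 0.69 and -0.04. Klrd1 then followed Cd3g (0.79, against 0.46 over all groups) and Cd3e (0.69 and 0.70). Lck followed Nkg7 with and without that group (0.82 without it and 0.92 with it). All genes were measured on the same arrays, so that these correlations are descriptions and were not tested.

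**Figure D4:**
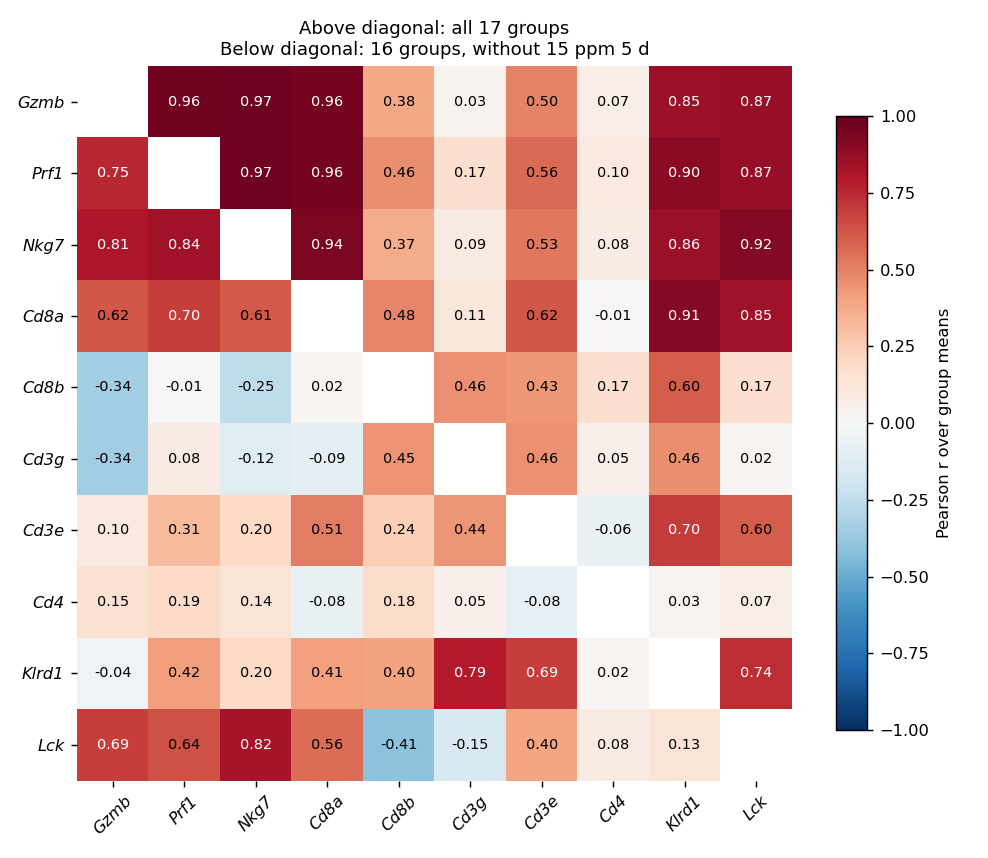
Pearson's r between the group means of each pair of the 10 genes, over all 17 groups above the diagonal and over the 16 groups without 15 ppm after 5 d below it. Gzmb and Klrd1 are at 0.85 above and -0.04 below the diagonal, and Gzmb and Nkg7 at 0.97 and 0.81.

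Outside the list, the genes whose group means were most like those of Gzmb over the 17 groups were Cd244l1 (r = 0.98), Olr1 (0.98), Fcgr3a (0.97), Tlr1 (0.97) and Parp14 (0.97). Without 15 ppm after 5 d their r was 0.78 to 0.82. At 15 ppm against 0 ppm after 5 d they rose by 1.29 to 2.85 on the log2 scale. They were picked for following Gzmb, whose mean was highest in that 15 ppm group, so that their rise follows from the choice. The genes most like Cd3e were Sash3 (0.89), Cd3d (0.88), Apol3-ps1 (0.87), Ptprcap (0.87) and Ighvl1 (0.87), with 0.84 to 0.90 when that group was left out. Cd3d, the CD3 delta chain, had a log2 difference of 0.45 ± 0.27 at 15 ppm after 5 d and was not called (limma, adjusted p = 0.20).

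**Figure D5:**
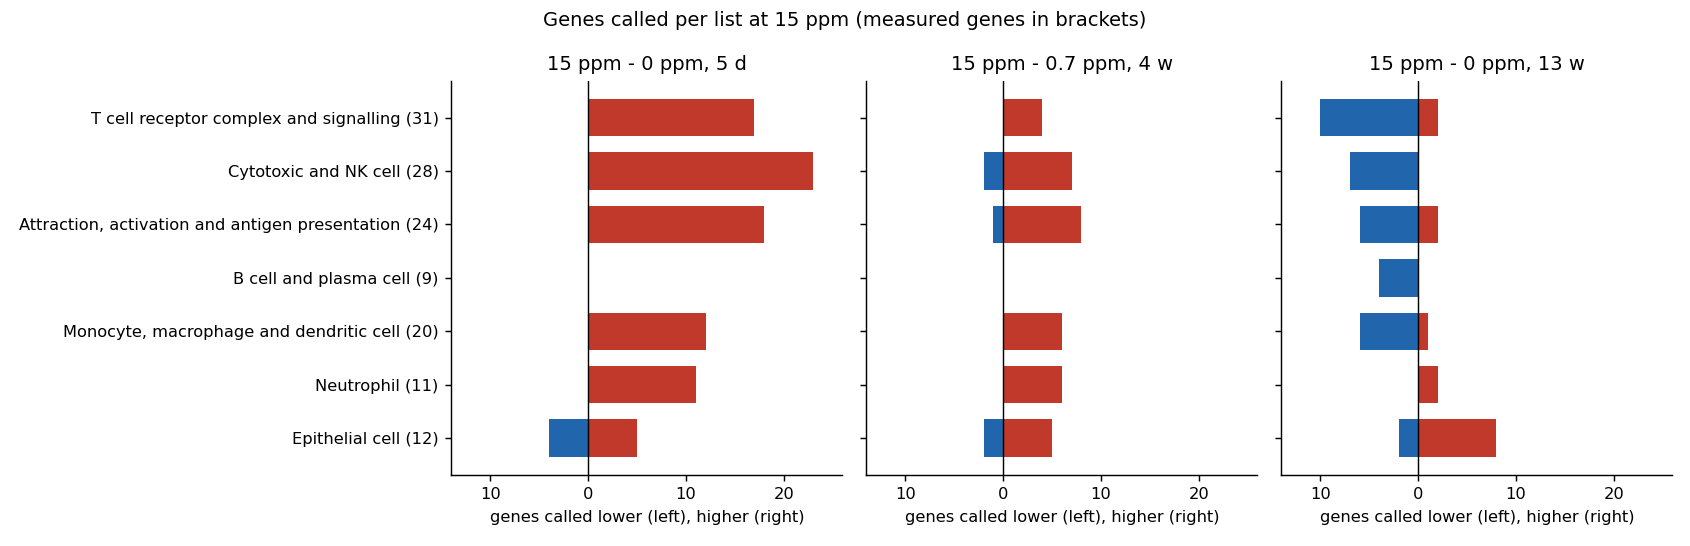
Number of genes called lower (blue, to the left) and higher (red, to the right) at 15 ppm in 7 lists of genes, against 0 ppm after 5 d, 0.7 ppm after 4 w and 0 ppm after 13 w, with the number of genes measured per list in brackets. After 5 d the cytotoxic and NK cell list has 23 of 28 genes higher, and after 13 w it has 7 lower.

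Further genes of these cells were examined in lists, which were also chosen with earlier results of these data known. Of 28 measured genes of cytotoxic and NK cells, 23 rose and 0 fell at 15 ppm after 5 d, where 18.3% of all genes were called higher and 19.5% lower. Their median log2 difference was 0.76, against -0.01 over all genes. Among them Gzmk, another granzyme, rose by 1.73 ± 0.14, Xcl1, a chemokine that activated cytotoxic cells secrete, by 2.62 ± 0.25, and Srgn, the proteoglycan that packs granule proteins, by 2.64 ± 0.28. Fcgr3a, an Fc receptor through which NK cells kill antibody-coated cells, rose by 2.49 ± 0.20, and Tyrobp, the adaptor of activating receptors, by 2.17 ± 0.18. Myeloid cells also express Srgn, Fcgr3a and Tyrobp. Limma's adjusted p was at most 3.3e-11 for these 5 genes.

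After 4 w, 7 of these 28 genes rose and 2 fell, where 21.3% of all genes were called higher and 16.1% lower, and the median was 0.08, against 0.01 over all genes. The share called higher was near that of all genes. Xcl1 rose by 0.82 ± 0.25 and Gzmk by 0.46 ± 0.14, while Serpinb9, an inhibitor of granzyme B, fell by 0.62 on the log2 scale. After 13 w, 0 rose and 7 fell, where 23.5% of all genes were called higher and 20.6% lower, and the median was -0.08, against -0.02 over all genes. The share called lower was near that of all genes. Serpinb9 fell by 1.09 (SE 0.19), Gzma, granzyme A, by 0.78 (SE 0.24) and Hcst, an adaptor of activating receptors, by 0.60 (SE 0.18). At 10 ppm after 5 d limma called 0 of the 28 (9.75% of all genes higher, 5.79% lower), and 1 had an unadjusted p under 0.05.

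Of 31 measured genes of the T cell receptor complex and its signalling, 17 rose and 0 fell at 15 ppm after 5 d (18.3% of all genes higher, 19.5% lower), with a median log2 difference of 0.45. Rhoh, a GTPase that T cell receptor signalling needs, rose by 2.34 ± 0.23, Il7r, the interleukin-7 receptor, by 1.24 ± 0.17, and Cd2, an adhesion receptor of T and NK cells, by 1.07 ± 0.15. Ptprc, the CD45 phosphatase found on all white blood cells, rose by 2.20 ± 0.24. Cd3d, a receptor chain of this list, was not called (0.45 ± 0.27, limma, adjusted p = 0.20). After 4 w 4 genes rose, Cd2, Rhoh, Il7r and Ptprc, and 0 fell, against 21.3% of all genes called higher and 16.1% lower. After 13 w 2 rose and 10 fell (23.5% of all genes higher, 20.6% lower), with a median of -0.26: Cd7 fell by 0.59 (SE 0.14), Lat, the adaptor that couples the receptor to its downstream pathway, by 0.55 (SE 0.16) and Skap1 by 0.51 (SE 0.16). Bcl11b, a factor of T cells that keratinocytes also express, rose by 1.04 ± 0.23. The response at 13 w minus that at 5 d was lower for 18 and higher for 1 of the 31, and lower for 20 and higher for 0 of the 28 cytotoxic genes, where 6.09% of all genes were lower and 9.21% higher.

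Signals that call in and arm such cells were higher as well at 15 ppm after 5 d. Of 24 measured genes of attraction, activation and antigen presentation, 18 rose and 0 fell at 15 ppm after 5 d (18.3% of all genes higher, 19.5% lower), with a median log2 difference of 0.82. Cxcl11 and Cxcl10, chemokines for the receptor CXCR3 of activated T and NK cells, rose by 6.12 ± 0.51 and 5.01 ± 0.54. Ccl3 and Ccl4, chemokines of the CC family, rose by 3.76 ± 0.32 and 3.41 ± 0.19. At 10 ppm after 5 d Cxcl11 (2.03 ± 0.51) and Cxcl10 (1.86 ± 0.54) were the 2 genes of this list called, both higher (9.75% of all genes), and are named after their values were seen. The share of the list called higher there was near that of all genes. After 4 w 8 rose and 1 fell, where 21.3% of all genes were called higher and 16.1% lower. After 13 w 2 rose, Il18 and Cxcl11 (1.44 ± 0.51), and 6 fell, among them B2m, the light chain of the class I molecules that CD8 T cells read, by 0.42 (SE 0.07), and Stat4, a factor of interleukin-12 signalling, by 0.43 (SE 0.12). Over all genes 23.5% were called higher and 20.6% lower, so that the share called lower was near that of all genes.

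Markers of neutrophils and of monocytes, macrophages and dendritic cells moved with the list after 5 d, while those of B cells and plasma cells were not called. At 15 ppm after 5 d, 11 of 11 neutrophil genes and 12 of 20 genes of monocytes, macrophages and dendritic cells rose, and 0 fell, where 18.3% of all genes were called higher and 19.5% lower. The mean log2 signal of the neutrophil list was 8.53 to 8.69 at 15 ppm and 6.30 to 7.08 at 0 ppm, and that of the monocyte list was 8.92 to 9.71 at 15 ppm and 8.17 to 8.53 at 0 ppm. The corresponding ranges were 6.76 to 7.50 and 5.94 to 6.15 for the cytotoxic and NK cell list, and 6.65 to 7.46 and 6.32 to 6.51 for the T cell receptor list. Of 9 B cell and plasma cell genes limma called 0, with 1 at an unadjusted p under 0.05, and their mean signal was 6.40 to 6.81 at 15 ppm and 6.28 to 6.79 at 0 ppm. No list had values at 0, since RMA signals have no zero. The part of these cells in the rise of Gzmb, Prf1, Nkg7, Cd8a, Klrd1, Cd3e and Lck was not tested.

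The same markers were counted after 13 w, where 23.5% of all genes were called higher and 20.6% lower. Of the neutrophil genes 2 rose and 0 fell at 15 ppm, of the monocyte genes 1 rose and 6 fell, and of the B cell and plasma cell genes 0 rose and 4 fell. The mean log2 signal of the B cell list was 6.29 to 6.62 at 15 ppm and 6.70 to 7.65 at 0 ppm. That of the T cell receptor list was 6.25 to 6.43 at 15 ppm and 6.35 to 6.78 at 0 ppm, and that of the cytotoxic list was 5.77 to 6.04 at 15 ppm and 6.04 to 6.19 at 0 ppm. The epithelial list stood at 12.6 to 12.7 at 15 ppm and 12.2 to 12.3 at 0 ppm, and 8 of its 12 genes rose and 2 fell, with Krt14 and Krt5, keratins of basal cells, higher by 1.37 ± 0.10 and 1.13 ± 0.15. The part of a changed cell mixture in the lower Cd3g and Cd3e signals was not tested.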

How the data were processed

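RNA of 68 animals in 17 groups was measured on Rat230_2 arrays. The authors deposited log2 signals. The submitters' processing notes name RMA and GCOS 1.0 and give no role or order, and the values were used as they stood. RMA brings the probe intensities of all arrays to a common distribution, so that a change is relative to the bulk of the genes. Of 31099 probe sets, 20832 named 1 gene. This gave 14217 genes, and where several probe sets named a gene (4525 genes) the one with the largest average signal was used. Gene names come from the platform annotation.

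Group means were fitted to all arrays with lmFit and eBayes of limma 3.58.1, under R 4.3.3, with 51 residual and 2.85 prior degrees of freedom. P values were adjusted by Benjamini-Hochberg over all genes within each comparison, and a call needed an adjusted p under 0.05. The fit was tested on simulated data. The 4 animals per group limit precision, with a median SE of 0.10 on the log2 scale. The labels give each animal its own number and pair none, and nothing in them says how chambers were shared.

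The 10 genes and the 7 other lists were chosen with earlier results of these data known. All 10 genes are named. Of each other list, up to 6 called genes with the smallest adjusted p and up to 3 called lower may be named in each comparison of 15 ppm, with the 5 genes most like Gzmb and Cd3e over group means. Title, description and time tag were followed where 19 of the 20 samples of 4 w have a treatment field that reads 5 days, and the 1 week of the series text was taken as 5 d. Alternatives were array centring, cyclic loess, probe set choice, a signal filter, the arrays fitted, array weights, a trended robust prior, RNA integrity, 0.7 ppm as reference and leaving out each animal. The single further probe sets of Gzmb, Cd8a and Cd3e were added after the data were seen.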

Additional observations from a re-analysis of the deposited data

Results flagged for a closer look

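Of 170 sets of 4 animals (10 genes in 17 groups), 8 held an animal whose gap to the nearest of the others passed Dixon's 95% limit, where chance flags about 1 in 20. Animal 210 at 0 ppm after 5 d was high for Prf1 (6.28), animal 329 at 10 ppm after 5 d for Prf1 (6.96) and animal 330 of the same group for Cd4 (5.45). Animal 356 at 15 ppm after 5 d was high for Cd3g (10.1) and animal 287 at 2 ppm after 13 w for Cd3e (7.61). Animal 226 at 0 ppm after 13 w was high for Cd8a (6.11). Animal 365 at 15 ppm after 4 w was low for Cd3e (6.67) and animal 240 at 0.7 ppm after 5 d for Lck (7.83).

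The response to 15 ppm differed between 13 w and 5 d by limma's interaction test, by -3.15 for Gzmb, -2.64 for Prf1, -2.00 for Nkg7, -2.21 for Cd8a, -2.33 for Klrd1, -0.79 for Cd3g, -1.06 for Cd3e and -0.48 for Lck on the log2 scale. Over 0.7 ppm it differed between 4 w and 5 d by -2.44 for Gzmb, -1.27 for Prf1, -1.37 for Nkg7, -1.46 for Cd8a and -1.82 for Klrd1.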

How the results depend on the processing

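No value of the 10 genes changed sign when called, under any alternative. At 15 ppm after 5 d the count of 7 genes ran from 6 to 7 over the other settings and from 5 to 7 when 1 animal was left out. The counts that moved by over 1.5 times were small ones. At 10 ppm after 5 d the count of 1 was 2 with cyclic loess, with the signal filter and with array weights, and 0 with the RNA integrity covariate and with the 5 d arrays alone, and it ran from 0 to 2 without single animals. At 6 ppm after 5 d it was 1 in place of 0 with array weights. At 15 ppm after 4 w the count of 4 was 2 with cyclic loess and on arrays with an RNA integrity number, and ran from 0 to 4 without single animals. At 15 ppm after 13 w the count of 2 was 1 with array weights, on arrays with an RNA integrity number, with the 13 w arrays alone and with 0.7 ppm as reference, and ran from 1 to 2 without single animals. For 15 ppm against 10 ppm after 13 w the count of 1 was 0 with arrays centred and on arrays with an RNA integrity number and 2 with that number as a covariate, and ran from 0 to 1 without single animals. The causes were not tested. Of 440 values with 1 animal left out, 59 lost their call. No paired analysis was possible because the replicate numbers are animal numbers that no 2 groups share. The values carry no detection calls, so that signals near 5, such as those of Cd8b and Cd4, could not be placed above or below background.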
